A study of Mus musculus with 4 samples.

Results

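Astrocytes clear transmitters, trade amino acids and buffer pH through membrane carriers, and 7 genes for such carriers are described here: Slc6a11 (GABA), Slc6a9 (glycine), Slc7a10 (small neutral amino acids including serine), Slc7a11 (cystine), Slc4a4 (sodium and bicarbonate), Slco1c1 (thyroid hormone and other organic anions) and Slc6a6 (taurine). They were picked by symbol with earlier results of these data known, by a rule that itself uses no measured value, from the 55471 genes listed for each library, and all 7 passed the filter on low counts and were tested. The RNA came from ribosomes pulled down through an HA tag from brains of male mice of genotype GFAP-Cre+/- Rpl22HA/wt, a genotype that both groups carried. In these mice Cre, driven by the GFAP promoter, switches on a tagged copy of the ribosomal protein Rpl22. The mice were 8 to 9 weeks old and received either chow with 0.2% cuprizone by weight, a copper chelator that strips myelin by killing oligodendrocytes, or normal chow (labelled mock), with 2 libraries per group. All 4 libraries are labelled batch 1 and 3 weeks. The series' design text names micro-dissected corpus callosum and later time points, a mismatch that could not be settled. The labels do not say whether a library came from 1 animal or several, so each p-value here reflects variation from library to library, which may be technical.

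Carriers of the SLC6 family couple uptake to the sodium and chloride gradients. The GABA carrier of Slc6a11 takes up GABA outside the synapse, and the glycine carrier of Slc6a9 sets the glycine level around NMDA and glycine receptors. Slc7a10 and Slc7a11 encode light chains of exchangers: the first moves serine, glycine and alanine, and the second, xCT, imports cystine for glutathione synthesis in exchange for glutamate and reaches the membrane with the heavy chain encoded by Slc3a2. Slc4a4 encodes an electrogenic cotransporter that regulates pH inside astrocytes and around them. Slco1c1 encodes a carrier of thyroxine present in endothelium and astrocytes of the rodent brain, and Slc6a6 carries taurine, an osmolyte used in volume control.

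Library totals ran from 21209517 to 23822620 counts, so that a count of 0 still allows a level of up to 0.126 to 0.141 CPM (a gene's counts scaled to a common library total), the value of 3 counts, for counting error only. Both cuprizone libraries, and replicate 2 above all, held RNA of cerebellar granule cells, a neuron type that the corpus callosum lacks. Gabra6, a GABA receptor subunit of granule cells, had 257 and 5109 counts in cuprizone replicates 1 and 2 and 0 in each mock library, and the summed level of 6 granule cell genes was 118 and 1092 CPM against 39.6 and 30.2 CPM. Cbln3, another granule cell gene, had 489 and 7882 counts against 0 and 0, so this RNA and the diet cannot be told apart. The summed level of 14 astrocyte markers was 6262 and 7088 CPM in cuprizone and 10421 and 10064 CPM in mock libraries, with none of the 14 at 0. Both cuprizone libraries lay below both mock libraries in 8 of the 14, beside 18.9% of all genes tested. In the other 6 the groups overlapped, among them Aldh1l1 (69.7 and 103 against 74.7 and 102 CPM). Neuron genes (10) summed to 15221 and 15291 against 13018 and 13573 CPM, so RNA of other cells was present in every pull-down. Oligodendrocyte genes (11) summed to 10585 and 13692 against 13230 and 15381 CPM, endothelial genes (9) to 11.1 and 20.7 against 13.1 and 14.7 CPM, and microglia genes (10) to 4.12 and 6.59 against 26.1 and 42.0 CPM. The part that any of these differences had in the values below was not tested. Gfap stood at 385 and 451 against 963 and 870 CPM, and the tagged gene Rpl22 at 42.2 and 27.5 against 40.6 and 40.1 CPM.

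None of the 7 carrier genes differed between cuprizone and mock libraries beyond the spread within groups. EdgeR's quasi-likelihood test called 0 of 7 after Benjamini-Hochberg adjustment over the 15816 genes tested, beside 0.0822% of all genes tested (0.0316% higher and 0.0506% lower in cuprizone). None of the 7 had an unadjusted p under 0.05, beside 12.8% of all genes (5.73% higher and 7.04% lower). DESeq2 and limma-voom also called 0 of 7. The folds were negative for Slc6a11, Slc7a10, Slco1c1 and Slc6a6 and positive for Slc6a9, Slc7a11 and Slc4a4, so 4 of 7 were negative beside 49.9% of all genes. Their median log2 fold was -0.27 beside 0.00056 over all genes. On CPM from library totals the groups overlapped in all 7 genes, whereas in 44.6% of all genes tested they did not. With totals scaled by the trimmed mean of M-values (TMM), as the test uses, both cuprizone libraries lay below both mock libraries for Slc6a11 and Slc6a6, beside 22.5% of all genes in that direction and 44.5% in either. The smallest log2 fold among the 13 genes called was 1.35 in size, so changes of the size seen here were below what this comparison called.

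**Figure D1:**
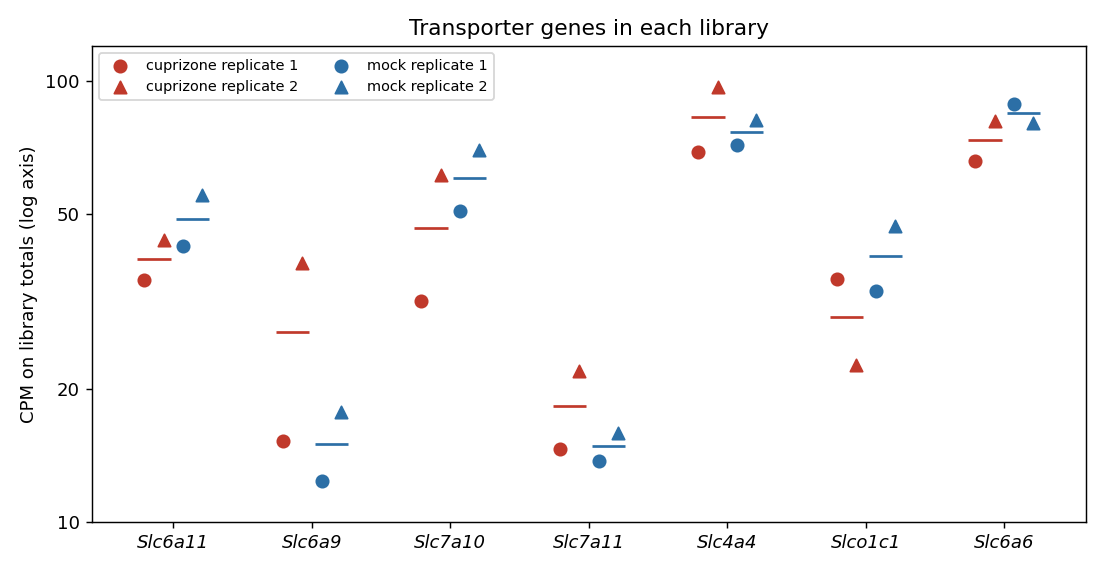
Level of each carrier gene in the 4 libraries, as CPM on library totals on a log axis; symbols are single libraries and short lines are group means (n = 2). The groups overlap in all 7 genes, and cuprizone replicate 2 stands above the other 3 libraries for Slc6a9 (38.5 CPM).

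Levels differed between the genes more than between the diets. Expressed per kilobase of exon (RPKM, here CPM divided by exon length) in mock libraries, Slc7a10 was the most abundant of the 7 at 28.5 ± 6.39 RPKM (SD, n = 2 here and for the next values). Slc6a6 followed at 9.99 ± 0.710, Slc6a11 at 9.62 ± 1.81, Slco1c1 at 7.73 ± 1.83 and Slc4a4 at 7.07 ± 0.633 RPKM. Slc6a9 had 2.93 ± 0.740 and Slc7a11 1.06 ± 0.109 RPKM. Among the 4 genes from Slc6a6 to Slc4a4 no neighbouring pair differed beyond its spread, although Slc6a6 lay above Slc4a4 in all 4 libraries, while Slc7a10 stood above them and Slc6a9 and Slc7a11 below. In cuprizone libraries Slc7a10 (22.0 ± 9.89 RPKM) was again the most abundant and Slc7a11 (1.31 ± 0.373 RPKM) the least.

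The GABA carrier gene Slc6a11 (ENSMUSG00000030307; GRCm38, chromosome 6, 114131241 to 114249952, plus strand) had 35.4 and 43.5 CPM in cuprizone replicates 1 and 2 and 42.1 and 55.1 CPM in mock replicates 1 and 2. Cuprizone replicate 1 was the lowest and mock replicate 2 the highest of the 4. The log2 fold was -0.37 (SE 0.25; 95% interval -0.98 to 0.24), with an edgeR adjusted p of 0.628. In such pooled RNA, fewer cells of a type and less RNA per cell cannot be told apart. Among 9 genes of GABA transport and turnover, 7 were tested and edgeR called 0 over all genes; 1 had a positive and 1 a negative fold at an unadjusted p under 0.05, DESeq2 called 1 (Gad1) and limma-voom 0. The list's median log2 fold was 0.07. It moved with the library left out, to -0.45 without cuprizone replicate 2 and to 0.32 without cuprizone replicate 1.

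Gad1, a GABA-synthesising enzyme of inhibitory neurons, stood at 56.9 and 160 against 40.9 and 24.1 CPM, a log2 fold of 1.67 (SE 0.51, edgeR adjusted p = 0.272). Gad1 was highest in the library richest in granule cell genes, and its log2 fold was 0.73 without that library and 2.23 without cuprizone replicate 1, where edgeR called it (adjusted p = 0.0418). Over the alternatives its adjusted p ran from 0.0018 (DESeq2) to 0.552. Abat, which breaks GABA down, had 148 and 249 against 183 and 198 CPM. Maob, an amine oxidase of astrocytes, was lower in both cuprizone libraries (69.0 and 60.0 against 92.2 and 98.4 CPM), with a log2 fold of -0.63 (SE 0.19, edgeR adjusted p = 0.256). Slc6a12 had 41 counts in cuprizone replicate 2 and 0 in the other libraries.

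Slc6a9, the glycine carrier gene (ENSMUSG00000028542; chromosome 4, 117834506 to 117875198, plus strand), had 15.2 and 38.5 CPM in cuprizone and 12.3 and 17.7 CPM in mock libraries. A single library, cuprizone replicate 2, stood apart, 2.53-fold above its own replicate, whereas the other 3 lay close together. Only 1.64% of the 9439 genes with a mean of at least 10 CPM had a larger ratio of cuprizone replicate 2 to replicate 1. The log2 fold was 0.77 (SE 0.50; 95% interval -0.42 to 1.97; edgeR adjusted p = 0.60), the largest positive one of the 7, and it was -0.06 without cuprizone replicate 2 and 1.29 without cuprizone replicate 1. Glycine carriers are more abundant in hindbrain and cerebellum than in forebrain. Agt, angiotensinogen, which marks astrocytes of caudal brain regions, had 24.5 and 87.9 against 18.8 and 23.95 CPM, and Slc6a5, the glycine carrier of glycinergic neurons, had 24 counts in cuprizone replicate 2 and 0 elsewhere. En2 and Irx2, transcription factor genes of midbrain and hindbrain, likewise had 89 and 58 counts in that library and 0 in the other 3. They and Agt belong to a list of 11 caudal genes, of which 6 were at 0 in every library. The list summed to 26.9 and 97.1 against 18.8 and 23.95 CPM, nearly all of it Agt. Besides Agt, another gene of the list was tested. It lay higher in both cuprizone libraries than in both mock libraries, with a log2 fold of 8.78 (edgeR adjusted p = 0.192). Counts of caudal genes were therefore not confined to cuprizone replicate 2. The part that RNA of caudal regions had in the Slc6a9 values was not tested. The annotated exons of Slc6a9 overlap those of B4galt2, Ccdc24 and Gm17114 on the opposite strand, and the strand setting of the counting is not given in the sources used here.

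The serine carrier gene Slc7a10 (ENSMUSG00000030495; chromosome 7, 35186385 to 35201114, plus strand) had 31.6 and 61.2 CPM in cuprizone and 50.7 and 69.7 CPM in mock libraries. Cuprizone replicate 1 was the lowest library, and replicate 2 lay between the mock libraries. The log2 fold of -0.44 (SE 0.36; 95% interval -1.30 to 0.42; edgeR adjusted p = 0.700) was -1.01 without cuprizone replicate 2 and -0.04 without cuprizone replicate 1. Slc7a10 was 1.93-fold higher in cuprizone replicate 2, which held more granule cell RNA, than in replicate 1. All other carriers but Slco1c1 were also higher there, by 1.23-fold (Slc6a11) to 2.53-fold (Slc6a9). Between the mock libraries, Slc7a10 was 1.38-fold higher in replicate 2. The part that granule cell RNA had in these ratios was not tested. Exons of Slc7a10 overlap those of Lrp3 on the opposite strand, which had 188 to 516 counts.

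**Figure D2:**
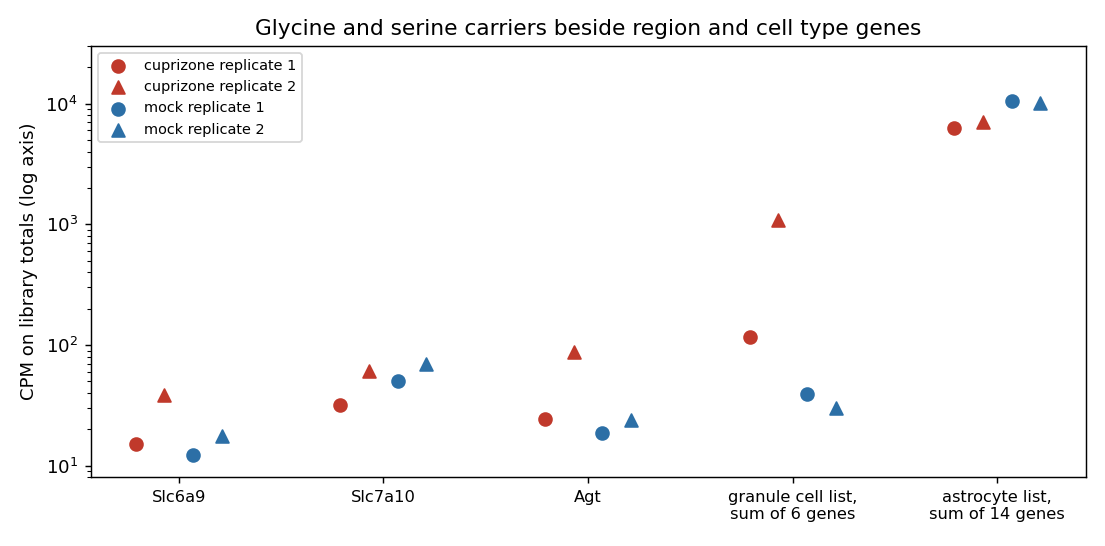
CPM on library totals (log axis) of Slc6a9, Slc7a10 and Agt and the summed CPM of the granule cell and astrocyte marker lists, one symbol per library. Cuprizone replicate 2 is highest for Slc6a9, Agt and the granule cell genes (1092 CPM), while the sum of the astrocyte markers is lower in both cuprizone libraries than in both mock libraries.

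Of 12 genes of glycine and serine handling, 11 were tested and edgeR called 0, as did DESeq2 and limma-voom. A negative fold at an unadjusted p under 0.05 was seen in 1, beside 7.04% of all genes. The median log2 fold was -0.10, and -0.10 to 0.064 with 1 library left out. Gcsh, the carrier protein of the glycine cleavage system, was lower in both cuprizone libraries at 63.7 and 61.5 against 95.5 and 93.1 CPM. Its log2 fold was -0.66 (SE 0.18, edgeR adjusted p = 0.235). Dld, the dehydrogenase of the same system and of other complexes, went the other way, with 260 and 281 against 221 and 200 CPM and a log2 fold of 0.29 (SE 0.15, edgeR adjusted p = 0.502). Slc1a4, a serine exchanger of astrocytes and neurons, had 22.0 and 40.3 against 43.6 and 58.7 CPM, a log2 fold of -0.78 (SE 0.35, edgeR adjusted p = 0.428), and its groups did not overlap. Psat1, an enzyme of serine synthesis, stood at 322 and 335 against 264 and 306 CPM.

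For the cystine carrier gene Slc7a11, the stretch before the transcription start is shown because it holds a pair of matches to the site bound by the stress factor ATF4, and the levels of Atf4 and Slc7a11 can be read side by side below. The 250 bases come from RefSeq on GRCm38.p6, chr3:50443614-50443863, minus strand, written 5′ to 3′, with capitals for matches to the C/EBP-ATF response element.
Slc7a11 promoter: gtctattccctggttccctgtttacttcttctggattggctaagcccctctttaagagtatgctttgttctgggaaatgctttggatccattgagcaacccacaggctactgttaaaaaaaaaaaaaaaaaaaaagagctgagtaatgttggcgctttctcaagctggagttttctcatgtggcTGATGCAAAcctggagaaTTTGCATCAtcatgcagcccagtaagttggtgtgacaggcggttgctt
The motif searched was TGATGNAAN on both strands. The matches were TGATGCAAA at positions -66 to -58 before the start and TTTGCATCA, on the other strand, at -48 to -40, and they do not overlap. At least 1 match is present in 3.44% of the 32851 promoter windows of the same length, and 2 or more in 13 of them (0.0396%). The core of the antioxidant response element, TGACNNNGC, which NRF2 binds, has no match in this window and is present in 10.2% of all windows. Matches are descriptions of letters and do not show binding. Of the 7 genes 6 had windows in the table (Slc6a9 3, Slc4a4 2), and Slc6a6 had none.

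Slc7a11 (ENSMUSG00000027737; chromosome 3, 49892526 to 50443614, minus strand) had 14.6 and 22.0 CPM in cuprizone and 13.7 and 15.9 CPM in mock libraries. Cuprizone replicate 2 was the highest library and the other 3 lay between 13.7 and 15.9 CPM. The log2 fold was 0.24 (SE 0.36; 95% interval -0.64 to 1.11; edgeR adjusted p = 0.885), and -0.10 without cuprizone replicate 2. Atf4 itself stood at 83.7 and 81.9 against 73.4 and 77.5 CPM, a log2 fold of 0.07 (SE 0.18, edgeR adjusted p = 0.952). Both Slc7a11 and Atf4 thus showed RNA differences smaller than their error. The amount and activity of the ATF4 protein were not measured.

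Among 11 genes of glutathione synthesis and regulators of xCT, edgeR called 0, as did DESeq2 and limma-voom. An unadjusted p under 0.05 was seen in 1, beside 12.8% of all genes. Folds were positive in 10 of the 11, while 49.9% of all genes had negative folds, and the median log2 fold was 0.25. Both cuprizone libraries lay above both mock libraries in 7 of the 11, and in 4 of the 11 with TMM scaling; over all genes tested these shares were 25.7% and 21.9%. Gsr, glutathione reductase, had 39.9 and 62.1 against 25.6 and 25.9 CPM, a log2 fold of 0.92 (SE 0.29, edgeR adjusted p = 0.285), which was 0.55 without cuprizone replicate 2. Nqo1, a quinone reductase and classical NRF2 target, had 8.34 and 17.0 against 7.92 and 5.85 CPM, and Srxn1, sulfiredoxin, also a target, had 74.9 and 58.1 against 75.2 and 73.1 CPM. Over leave-one-library-out fits the median of the list ran from 0.17 to 0.44.

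Relatives of Slc7a11 and Slc7a10 and the heavy chains mostly had negative folds. A list of 13 other SLC7 genes and heavy chains, which does not hold every family member, had 9 tested genes. Of these edgeR called 0, DESeq2 0 and limma-voom 0, and 3 had negative folds at an unadjusted p under 0.05, beside 7.04% of all genes. Folds were negative in 8 of the 9, beside 49.9% of all genes and 71.3% of the solute carrier genes tested. The median log2 fold was -0.49. In 4 of the 9 both cuprizone libraries lay below both mock libraries, beside 18.9% of all genes. Slc3a2, the heavy chain shared by xCT and several other light chains, had 126 and 158 against 181 and 205 CPM, with no overlap and a log2 fold of -0.51 (SE 0.19, edgeR adjusted p = 0.332). Per kilobase, Slc7a11 reached 0.0294 and 0.0352 of the level of Slc3a2 in cuprizone and 0.0192 and 0.0197 in mock libraries. Slc3a2 RNA therefore exceeded Slc7a11 RNA manyfold per kilobase in each library. The ratio of Slc7a11 to Slc3a2 was higher in both cuprizone libraries, and this difference was not tested. Exon length here counts all annotated exons (13922 bases for Slc7a11), so the Slc7a11 level is understated if shorter transcripts are used. Slc7a2, a carrier of cationic amino acids, had 10.7 and 5.50 against 16.1 and 26.3 CPM (log2 fold -1.46, SE 0.47, edgeR adjusted p = 0.292). Slc7a1, of the same kind, had 4.26 and 4.28 against 5.07 and 21.2 CPM, so mock replicate 2 alone stood high. Slc7a14, a lysosomal family member, had 70.4 and 66.4 against 98.4 and 85.0 CPM. Slc7a4, outside the list, had 71.8 and 53.0 against 135 and 144 CPM (log2 fold -1.23, SE 0.21, edgeR adjusted p = 0.129). Of all 10 SLC7 genes tested besides Slc7a10 and Slc7a11, edgeR called 0 and DESeq2 called 1. Folds were negative in 8 of these 10 and positive in 2, with a median log2 fold of -0.37. Both cuprizone libraries lay below both mock libraries in 4 of them and above in 1. Over all 15816 genes tested DESeq2 called 720.

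Slc4a4, the bicarbonate cotransporter gene (ENSMUSG00000060961; chromosome 5, 88886818 to 89239653, plus strand), had 69.0 and 97.0 CPM in cuprizone and 71.6 and 81.3 CPM in mock libraries. The mock values lay inside the range of the cuprizone values. Its log2 fold was 0.05 (SE 0.23; 95% interval -0.51 to 0.61; edgeR adjusted p = 0.973), the smallest in size of the 7, and leaving out cuprizone replicate 2 gave -0.23, leaving out mock replicate 1 gave -0.04. Its 2 promoter windows belong to separate starts, and counts for whole genes do not separate the transcripts.

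In the list of bicarbonate and pH handling, 13 of 16 genes were tested, and edgeR, DESeq2 and limma-voom each called 0. An unadjusted p under 0.05 was seen for 1 positive and 1 negative fold, beside 5.73% and 7.04% of all genes. The median log2 fold was -0.04 (-0.18 to 0.29 with 1 library left out). Car2, carbonic anhydrase of oligodendrocytes and some astrocytes, was by far the most abundant, with 1249 and 1717 against 1039 and 1037 CPM. Its log2 fold of 0.45 (SE 0.18, edgeR adjusted p = 0.373) was 0.19 without cuprizone replicate 2. Car12, a membrane-bound carbonic anhydrase, was lower in both cuprizone libraries (5.50 and 6.46 against 15.8 and 11.03 CPM; log2 fold -1.23, SE 0.42, edgeR adjusted p = 0.312). Slc4a8, a sodium-driven chloride and bicarbonate exchanger of neurons, had 18.2 and 25.8 against 26.2 and 53.9 CPM. Slc4a10, a related neuronal carrier, had 115 and 111 against 92.4 and 117 CPM, and its groups overlapped.

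Slco1c1 (ENSMUSG00000030235; chromosome 6, 141524368 to 141570177, plus strand) had 35.6 and 22.7 CPM in cuprizone and 33.4 and 46.8 CPM in mock libraries. It was the only one of the 7 that was lower in cuprizone replicate 2 than in replicate 1, and its groups overlapped. The log2 fold of -0.53 (SE 0.32; 95% interval -1.31 to 0.25; edgeR adjusted p = 0.574) was the lowest of the 7, and with 1 library left out it ran from -0.88 (cuprizone replicate 1 omitted) to -0.24 (mock replicate 2 omitted). Endothelium also makes this carrier. The 9 endothelial genes summed to 11.1 to 20.7 CPM in the 4 libraries, with 2 to 4 of the 9 at 0 in each. Cdh5, a cadherin of endothelial cells, was the only 1 of the 9 with 0 counts in all 4 libraries. Cldn5, a tight junction protein of the same cells, had 0 and 38 against 7 and 20 counts. Most of each sum came from the other genes of the list. The part that endothelial RNA had in the Slco1c1 values was not tested.

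Of 18 other genes of organic anion carriers and thyroid hormone handling, 14 were tested and edgeR called 0. An unadjusted p under 0.05 was seen for 1 positive and 2 negative folds, beside 5.73% and 7.04% of all genes. DESeq2 called 1 (Dio2), beside 720 of all 15816 genes tested, and limma-voom called 0. The median log2 fold was 0.02. With 1 library left out it was 0.06 to 0.44, over genes that can differ because the filter is then applied afresh. Dio2, the astrocyte deiodinase that turns thyroxine into the active hormone, stood at 28.0 and 27.8 against 82.8 and 60.4 CPM. Both cuprizone values were close to each other and below both mock values, and the log2 fold was -1.43 (SE 0.24, edgeR adjusted p = 0.129). It ran from -1.61 to -1.18 when 1 library was left out. Over the alternatives its adjusted p ran from 8.24e-05 (DESeq2) to 0.422, and edgeR called it when no filter on low counts was used (0.0274). Thra, the main thyroid hormone receptor of the brain, had 261 and 219 against 238 and 286 CPM. Klf9, a hormone-responsive transcription factor gene, had 401 and 313 against 244 and 330 CPM. Hr, a corepressor gene induced by thyroid hormone and also expressed in cerebellum, had 12.5 and 23.3 against 8.68 and 4.38 CPM, a log2 fold of 1.38 (SE 0.53, edgeR adjusted p = 0.353). Carrier, deiodinase and receptor thus had folds of different sizes, and only that of Dio2 passed the threshold in any alternative run.

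The taurine carrier gene Slc6a6 (ENSMUSG00000030096; chromosome 6, 91684053 to 91759066, plus strand) had 65.6 and 81.2 CPM in cuprizone and 88.7 and 80.2 CPM in mock libraries. Cuprizone replicate 1 was the lowest library, and the other 3 were similar. With TMM scaling the values were 63.7 and 79.7 against 91.1 and 82.1 CPM, without overlap. The log2 fold was -0.27 (SE 0.20; 95% interval -0.76 to 0.22; edgeR adjusted p = 0.665), and -0.12 without cuprizone replicate 1. Slc6a6 had the narrowest interval of the 7.

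Of 16 genes for taurine, osmolyte and volume handling, 14 were tested and edgeR called 0. An unadjusted p under 0.05 was seen for 1 positive and 1 negative fold, beside 5.73% and 7.04% of all genes. DESeq2 called 1 (Ado), beside 720 of all 15816 genes tested, and limma-voom 0. The median log2 fold was -0.06 (-0.23 to 0.13 with 1 library left out). Ado, a thiol dioxygenase that makes hypotaurine from cysteamine, was higher in both cuprizone libraries at 331 and 392.4 against 218 and 224 CPM. Its log2 fold was 0.64 (SE 0.16, edgeR adjusted p = 0.210; 0.0106 by DESeq2, and from 0.0106 to 0.596 over the alternatives). Cdo1, the dioxygenase that starts taurine synthesis from cysteine, had 76.0 and 58.5 against 68.7 and 62.7 CPM. Slc5a3, the inositol carrier, had 14.2 and 8.90 against 17.5 and 28.9 CPM, a log2 fold of -1.07 (SE 0.41, edgeR adjusted p = 0.359).

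**Figure D3:**
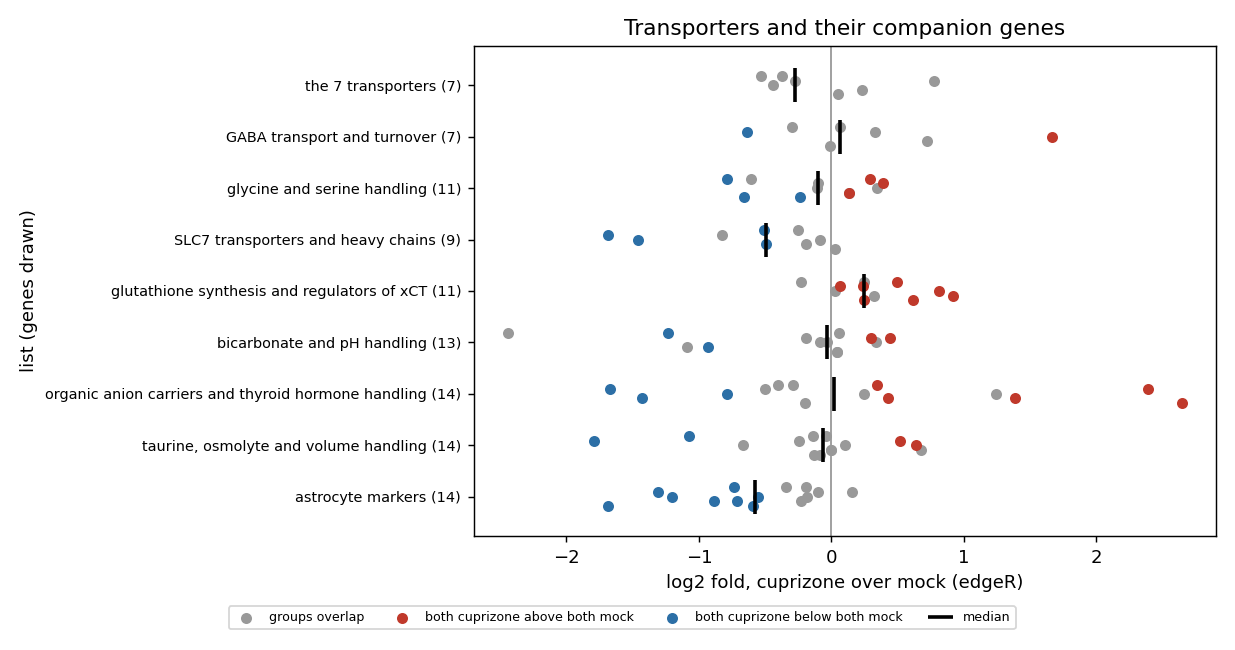
Log2 fold, cuprizone over mock, of each tested gene in the carrier set, the 7 companion lists and the astrocyte markers; colour shows whether the libraries of the groups overlap on CPM, and the bar is the median. The 7 carriers lie between -0.53 and 0.77, and the astrocyte markers have the lowest median (-0.57).

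The summed astrocyte markers were lower in cuprizone libraries, although 6 of the 14 overlapped between groups. Each carrier was therefore also expressed per 1000 counts of the 14 markers in the same library. On this scale Slc4a4 had 11.02 and 13.7 in cuprizone against 6.88 and 8.08 in mock libraries. Slc6a6 had 10.5 and 11.5 against 8.52 and 7.97, and Slc6a11 5.65 and 6.14 against 4.04 and 5.47. Slc7a11 (2.33 and 3.10 against 1.32 and 1.58) and Slc6a9 (2.43 and 5.44 against 1.18 and 1.76) also lay higher in both cuprizone libraries, while Slc7a10 (5.05 and 8.63 against 4.86 and 6.93) and Slco1c1 (5.68 and 3.20 against 3.20 and 4.65) overlapped. The 5 of 7 that lay higher compare with 60.6% of all genes tested, and the 0 of 7 that lay lower with 4.62%, so the share is close to the background that the lower marker sum gives. Within the marker list, Slc1a2, the main glutamate carrier of astrocytes, had the lowest log2 fold of the 14. It was -1.68 (SE 0.22, edgeR adjusted p = 0.0845), below the interval of each of the 7 carriers. Slc1a2 was named after its value was seen and does not stand for the list, whose median was -0.57 and highest log2 fold 0.16.

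**Figure D4:**
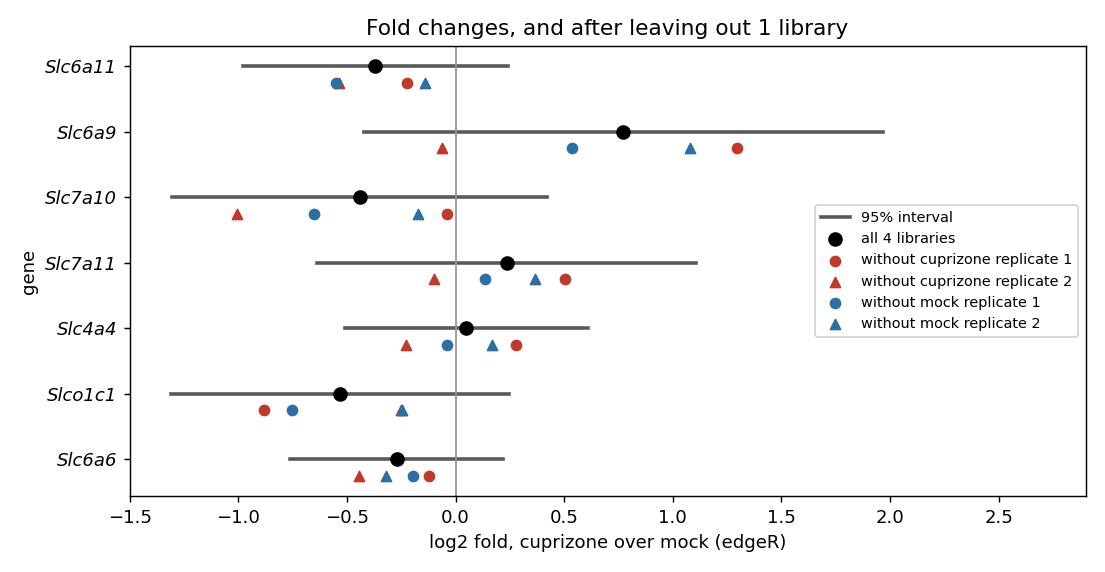
Log2 fold, cuprizone over mock, of the 7 carriers with its 95% interval (black point and bar, all 4 libraries), and the fold after leaving out each library in turn (coloured symbols below the bar). All 7 intervals include 0, and leaving out cuprizone replicate 2 moves Slc6a9 from 0.77 to -0.06.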

How the data were processed

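RNA-seq of HA-tagged ribosome pull-downs was deposited as 1 table per library. The values are raw counts per Ensembl gene that the authors deposited without normalization. Per the submitters' processing notes featureCounts 1.6.0, STAR 2.5.4b, FastQC 0.11.9 and GRCm38 (mm10) were named. Annotation, strand setting and handling of multi-mapping reads: not given in the sources used here. Coordinates and exon lengths came from GENCODE M21 on GRCm38, and symbols from a separate list of gene names.

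CPM and RPKM used library totals. Tests used edgeR 4.0.16 in R 4.3.3 on all genes: filterByExpr, TMM factors, glmQLFit (robust, legacy estimation) and glmQLFTest, 2-sided, Benjamini-Hochberg adjustment, threshold 0.05, without covariates. The SE is the log2 fold divided by the root of F, and intervals use the test's degrees of freedom. The fit was tested on simulated data. DESeq2 1.42.0 and limma 3.58.1 were alternatives, beside other scalings, filters, left-out libraries and a replicate block. The filter on low counts was applied afresh when a library was left out, so the genes behind a list's median can differ. With 2 libraries per group an exact permutation test cannot go below p = 0.333 and was not used. Depth was 21209517 to 23822620 counts.

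The members and lists were chosen with earlier results of these data known. Named genes are the members, Gfap, Rpl22, Slc3a2 and, per companion list, any called gene, the 2 most abundant and the 2 with the largest fold among those with a mean of at least 5 CPM and groups that do not overlap; other named genes were added after their values were seen. Some list genes are not reported here.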

Additional observations from a re-analysis of the deposited data

How the results depend on the processing

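None of the 7 carriers passed the threshold in any of the 13 alternatives, where the lowest adjusted p was 0.194 (Slc6a9 without cuprizone replicate 1). Of the 91 alternative folds of the 7 genes, 87 kept their direction; the other 4 were Slc6a9 (-0.064), Slc7a11 (-0.10) and Slc4a4 (-0.23) without cuprizone replicate 2 and Slc4a4 (-0.04) without mock replicate 1, where the highest folds with 1 library left out were 1.29, 0.50 and 0.28. The median of the 7 ran from -0.25 to -0.04 with 1 library left out. Among companions, the sign turned with library totals alone for Abat (0.057) and Cdo1 (0.034). With 1 library left out it turned in at least 1 fit for Abat (-0.45 to 0.32), Cdo1 (-0.23 to 0.13) and Slc4a10 (-0.11 to 0.24); the cause was not tested. The 13 genes called over the whole table became 191 without a filter on low counts, 68 at a mean of at least 1 CPM, 51 with bias-adjusted dispersions, 720 with DESeq2 and 56 with limma-voom, and from 5 (without either mock library) to 123 (without cuprizone replicate 1) with 1 library left out. With the replicate number as a block 10 genes were called, and 0 of the 7 carriers. Deviations from the group means of libraries with the same number correlated at 0.025 over 10994 genes. The labels give no pairing. This value cannot exclude one, because there are 2 libraries per group and the cuprizone replicates also differ in granule cell RNA. With 2 libraries per group, the spread between libraries rather than depth limits these values: each of the 7 had at least 273 counts in every library.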

Other observations

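Solute carrier genes as a whole leaned towards negative folds. Of 385 genes with an Slc or Slco symbol 258 were tested, and 184 of these (71.3%) had negative folds, beside 49.9% of all genes tested, with a median log2 fold of -0.29. Both cuprizone libraries lay below both mock libraries in 90 of the 258 (34.9%, beside 18.9% of all genes) and above in 22 (8.53%, beside 25.7%). With TMM scaling the counts were 103 below and 18 above. EdgeR called 0 of the 258, with 42 at an unadjusted p under 0.05 (39 lower, 3 higher), DESeq2 called 16 and limma-voom 1. Among the 15816 genes tested, 12.8% had such an unadjusted p (7.04% lower, 5.73% higher), and DESeq2 called 720 and limma-voom 56. These 258 include the 7 carriers, whose median was -0.27.

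The following 3 solute carrier genes with lower levels were named after their values were seen, and the cells that their RNA came from were not tested. Slc6a15, a carrier of branched-chain amino acids and proline in neurons, had 15.2 and 31.1 CPM in cuprizone against 68.5 and 51.9 CPM in mock, giving a log2 fold of -1.45 (SE 0.39, edgeR adjusted p = 0.235). Slc1a1, a neuronal glutamate and cysteine carrier, had 36.1 and 30.1 against 75.4 and 70.2 CPM, a log2 fold of -1.21 (SE 0.21, edgeR adjusted p = 0.133). Slc8a1, a sodium and calcium exchanger, had 63.5 and 32.95 against 98.2 and 125 CPM (log2 fold -1.29, SE 0.33, edgeR adjusted p = 0.231). In each of these 3 genes the groups did not overlap.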
